A study of Mus musculus with 9 samples.

Results

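The genes described here are those that the authors' deposited table, which lists 20467 genes by symbol, marks as holding a conserved constitutive decay element (CDE) in the 3' untranslated region (3' UTR). There are 55 of them, and 8 were left out by the rule (Tnf, Nfkbid, Nfkbiz, Rc3h1, Rc3h2, Ier3, Icos and Bmpr1a), which leaves 47. The sources used here do not say how the authors made the prediction. The CDE is a short RNA hairpin. Proteins of the Roquin family bind the hairpin through a folded domain and recruit the CCR4-NOT deadenylase, which removes the poly(A) tail and starts decay. In macrophages the element is best known from the mRNA of tumour necrosis factor (Tnf), whose short life limits inflammation.

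RNA was sequenced from RAW264.7 cells, a mouse macrophage line, after 2 h with lipopolysaccharide (LPS, a bacterial cell wall component) at 100 ng/ml. All 9 libraries shared line and treatment, and no genotype or knockdown was compared. The immunoprecipitation (IP) used rabbit polyclonal Roquin antibodies bound to protein A/G beads and gave 3 libraries. The control IP, with protein A/G beads and no antibody, gave 3, and the lysate before IP, called input, gave 3. RNA held by other proteins that the antibodies bring down cannot be told apart from RNA held by Roquin, and the labels do not say which Roquin paralog each antibody binds. The series' design text calls the replicates biological, and the labels name no separate cultures, so p-values measure only the spread between these libraries. Of 12 macrophage markers, 10 were in the table and none of them was at 0, and their summed level was 1554 to 2660 CPM (counts scaled to a fixed library total) in the input. Of 7 T cell markers 5 (Cd3e, Cd3g, Cd2, Cd4 and Cd8a) were at 0 in all libraries, and the 7 summed to 2.22 to 8.76 CPM in the input, 1.77 to 12.3 in control IP and 0.620 to 2.26 in Roquin IP. Of 5 B cell markers 3 were at 0 in all libraries, Ms4a1 among them, and the 5 summed to at most 0.846 CPM in any library. The 5 fibroblast markers summed to 0 in every input library and to at most 1.06 CPM in any other.

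The element could be placed in the mouse genome for most of the list. The letters TTCNNNGAA, in which the N positions are a pyrimidine, a purine and a pyrimidine in that order, were searched on the sense strand of the longest annotated 3' UTR of each gene. The TTC and GAA letters pair to form the upper stem and the 3 letters between them form the loop. Of the 47 genes 44 held it there, and 46 held it when every annotated 3' UTR of a gene was read. Bcan was the gene without it. Of all genes tested, 6.01% held the letters in the longest 3' UTR. A predicted element is a matter of sequence, so this is a check of the list and not a result about it. The elements are printed 5' to 3' as DNA letters with the 9 letters searched in capitals, from GENCODE M21 (GRCm38); the sources used here do not name the build behind the deposited counts. First come elements of genes enriched with Roquin, which show how much the flanks vary.

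Lpin1, chr12:16536987-16537007, minus strand: tactctTTCTGTGAAagaaaa
Lpin2, chr17:71248986-71249006, plus strand: tgttctTTCTGTGAAagagag
Fbxo11, chr17:87991431-87991451, minus strand: ccttctTTCTATGAAagagaa
Bptf, chr11:107035234-107035254, minus strand: ttttctTTCTATGAAaggagc
Slc25a25, chr2:32416065-32416085, minus strand: acctcaTTCTGTGAAtgtgcc
Fos, chr12:85477075-85477095, plus strand: acagttTTCCATGAAaacgtt
Ppp1r10, chr17:35932144-35932164, plus strand: gttgttTTCTATGAAaacagt

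Next come pairs of elements that share a run of letters, of which the upper gene was called enriched with Roquin and the lower was not. They are shown so that measurements can be set side by side. Not called does not mean not enriched. Frmd6 had few reads and stood at log2 2.48 over control IP, against 3.12 for Rbbp5. Baz2b was called in edgeR when control IP 1 was left out (log2 1.48, adjusted p = 0.0437).

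Prr3, chr17:35972689-35972709, minus strand: cgtgttTTCTGTGAAaacagc
Baz2b, chr2:59900110-59900130, minus strand: ttcgttTTCTGTGAAaaggaa
Aggf1, chr13:95350960-95350980, minus strand: attttcTTCTGTGAAgaatgt
Shprh, chr10:11214479-11214499, plus strand: tctctcTTCTGTGAAgaattc
Rbbp5, chr1:132504790-132504810, plus strand: cttcctTTCTGTGAAaggttg
Frmd6, chr12:70902083-70902103, plus strand: agtcctTTCTGTGAAaggatc

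The elements of Prr3 and Baz2b share an unbroken run of 14 bases. Those of Aggf1 and Shprh share 15, and those of Rbbp5 and Frmd6 16. Each run includes the letters searched with a TGT loop, which many other genes of the list hold. The stems differ within each pair. Beyond TTC and GAA they run on by 4 and 2 base pairs, 3 and 2, and 3 and 5, in that order. Other called and uncalled genes share such runs. Ppp1r10 and Kpna4 share 16 bases (log2 3.85 and 0.13 over control IP), and Slc25a25 and Zfp82 14 (2.88 and 1.32). The element of Prr3 also shares 16 bases with that of Tnf. All the windows shown lie within a 3' UTR.

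The genes enriched with Roquin had unlike roles. Over control IP, Lpin1 rose 15.5-fold in Roquin IP, Ppp1r10 14.4-fold, Prr3 13.3-fold and Aggf1 11.0-fold. In all, 15 of the 47 genes were called higher (edgeR quasi-likelihood test, Benjamini-Hochberg adjusted p under 0.05), by 3.06-fold to 15.5-fold. That was 15 of the 29 tested genes of the list (51.7%), against 3.76% of all genes tested. These 15 are called bound here, as a name for the call and not for a contact. A further 14 were tested and not called, and 18 had too few reads to be tested. No gene of the list was called lower, and DESeq2 called 17 higher and 0 lower, against 4.96% and 0.0627% of all genes. At an unadjusted p under 0.05, 20 of 29 were higher and 0 lower, against 7.93% and 2.13% of all genes tested. Both Roquin comparisons share the Roquin IP libraries, and over the input 16 of 29 were called higher and 0 lower, against 5.45% and 2.79% of all genes tested. At an unadjusted p under 0.05, 19 were higher and 0 lower over the input, against 12.1% and 10.7%. The 16 called were the 15 bound genes and Slc25a14. A gene that missed the threshold is not shown to be free of Roquin.

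Of the 29 tested genes, 5 (Fos, Frmd6, Sertad3, Slc25a14 and Zfp82) passed the filter on low counts only with the help of their level in Roquin IP. With the filter set on control IP and input alone, a choice made after seeing the data, 14 of the 24 genes left were called higher, against 3.73% of all genes. The fit with the replicate number as a block, since same-numbered libraries deviated together, called 17 of 29 higher, with Slc25a14 and Edem3 added, against 5.52% of all genes (0.115% lower). Over the input the block called 17, with Agap2 added, against 9.99% of all genes (8.04% lower). Scaling by library size alone called 13 over control IP and 15 over the input, and none lower. It called 2.69% of all genes higher and 38.8% lower over control IP (257 and 3708, in place of 360 and 0), and 2.71% higher and 27.9% lower over the input. All 3 Roquin IP libraries exceeded every control IP library for 21 of 29 genes, against 10.7% of all genes tested, and every input library for 19, against 16.5%. Of all reads the list took 0.359% ± 0.0894 with Roquin antibodies, 0.122% ± 0.0200 on beads alone and 0.125% ± 0.0123 before IP (SD over 3 libraries). The 8 genes left out took 27.2% to 34.0% of the reads in each Roquin IP library and 0.33% to 0.796% in each other library.

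**Figure D1:**
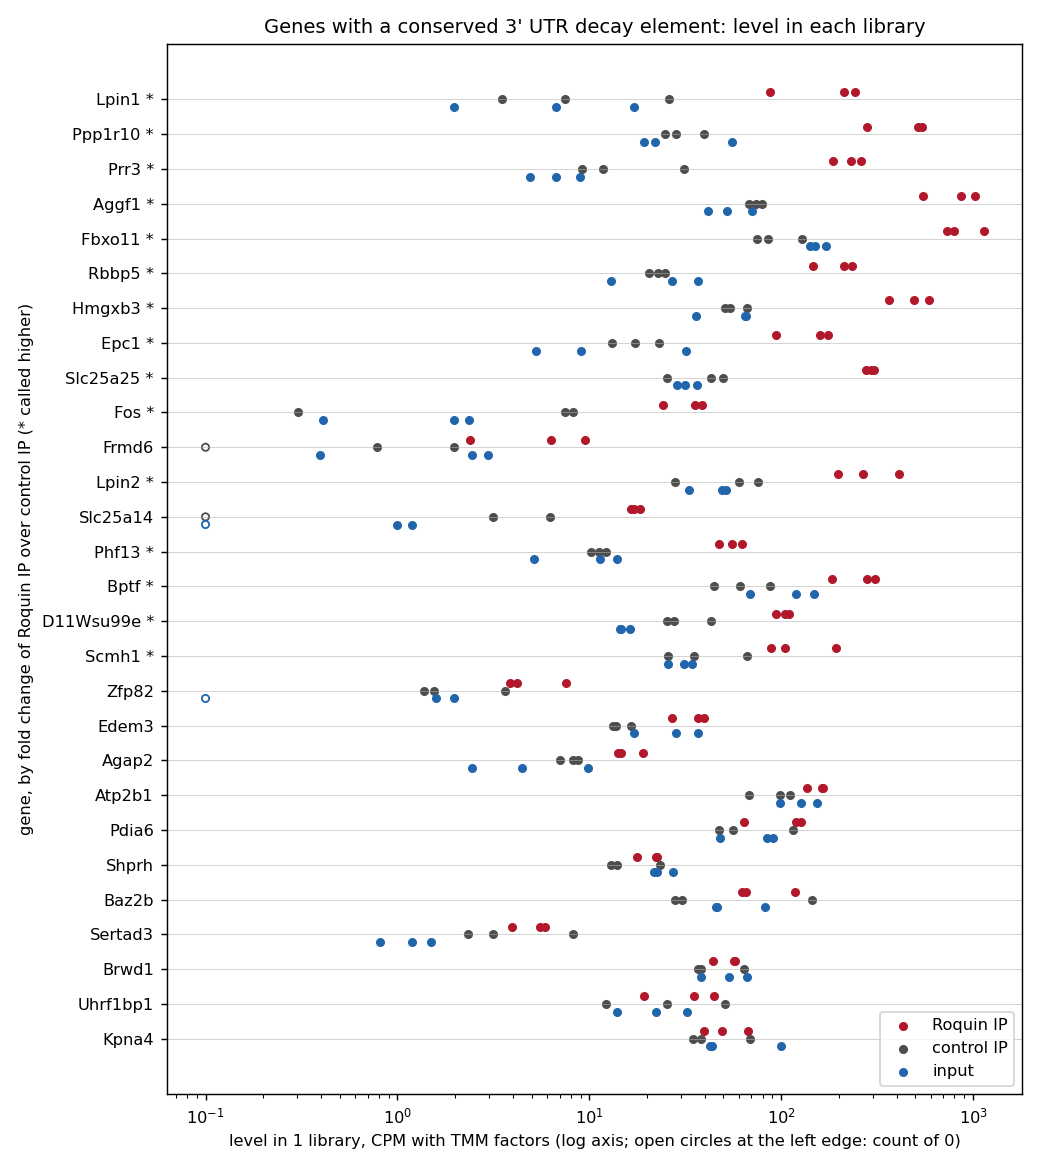
Level of 28 of the 29 tested genes in each library, in CPM scaled by TMM factors on a log axis, with Roquin IP in red, control IP in grey and input in blue. Each dot is 1 library, open circles at the left edge are counts of 0, and genes called higher in Roquin IP over control IP carry a star. The red dots of all 15 starred genes lie right of every grey and blue dot of that gene, while colours mix for Kpna4, Brwd1 and Shprh.

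The phosphatidate phosphatases Lpin1 and Lpin2 make diacylglycerol for the synthesis of storage lipid and phospholipid. Lpin1 had 578, 1691 and 906 reads with Roquin antibodies (libraries 1, 2 and 3), 85, 38 and 41 on beads alone and 42, 17 and 4 from lysate. Lpin2 had 977, 2117 and 2038 reads with Roquin antibodies, 250, 307 and 325 on beads alone and 127, 125 and 67 from lysate. Scaled to depth, Lpin1 stood at 181 ± 82.3 CPM in Roquin IP against 12.3 ± 11.9 in control IP (SD, n = 3), and Lpin2 at 291.5 ± 108.3 against 54.7 ± 24.6. For both genes the lowest Roquin IP library was above the highest control, although library 3 was the lowest of the Roquin IPs and also of the controls. In edgeR Lpin1 was higher over control IP by log2 3.96 (SE 0.72, adjusted p = 0.00345) and Lpin2 by 2.42 (SE 0.39, adjusted p = 0.0013). Leaving out 1 library at a time moved that of Lpin1 between 3.47 and 5.09 (the latter without control IP 1) and its adjusted p between 0.00047 and 0.0282. The elements of both share 15 bases, the letters searched included.

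Several bound genes act on chromatin. Ppp1r10, a nuclear targeting subunit of protein phosphatase 1, had 1232, 2211 and 5576 reads with Roquin antibodies, 130, 127 and 331 on beads alone and 54, 49 and 112 from lysate. Its level was 445.3 ± 144.0 CPM with Roquin and 31.0 ± 7.67 on beads alone, and the log2 fold change was 3.85 (SE 0.43, adjusted p = 4.63e-05). Rbbp5, a core subunit of histone H3 lysine methyltransferase complexes, had 556, 1164 and 2206 reads with Roquin antibodies, 75, 105 and 289 on beads alone and 32, 68 and 74 from lysate. Epc1, a subunit of the NuA4 histone acetyltransferase complex, had 382, 744 and 1820 reads with Roquin antibodies, 57, 67 and 268 on beads alone and 13, 23 and 64 from lysate. For both genes every Roquin IP library lay above all other libraries, while control IP and input overlapped. They were 8.67-fold and 7.97-fold higher over control IP, with log2 fold changes of 3.12 (SE 0.36) and 3.00 (SE 0.51) and adjusted p of 5.52e-05 and 0.002.

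Bptf, the large subunit of the NURF chromatin remodeller, had 666, 1462 and 3180 reads with Roquin antibodies, 287, 227 and 713 on beads alone and 292, 173 and 300 from lysate. It was 4.00-fold higher over control IP (log2 2.00, SE 0.36, adjusted p = 0.0028) and log2 1.20 over the input (SE 0.35, adjusted p = 0.0484). The latter call ended with Roquin IP 1 left out (adjusted p = 0.154), likewise Roquin IP 3 (0.172), control IP 2 (0.0525), control IP 3 (0.0517), Input 1 (0.108) or Input 2 (0.167). It also ended when libraries were scaled by their size alone (0.313). Phf13, a PHD finger protein that reads methylated histone H3, had 132, 377 and 647 reads with Roquin antibodies, 40, 52 and 131 on beads alone and 28, 13 and 28 from lysate. Its fold was 4.93 over control IP (log2 2.30, SE 0.36, adjusted p = 0.000876), and the 3 control libraries were close together at 11.2 ± 1.00 CPM.

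Scmh1, a Polycomb group protein gene, had 462, 697 and 1079 reads with Roquin antibodies, 217, 179 and 299 on beads alone and 84, 79 and 52 from lysate. This was the smallest bound fold, 3.06 (log2 1.61, SE 0.39, adjusted p = 0.0273), and in CPM Roquin IP 2 (88.1) was not far above control IP 1 (66.1). The call ended when libraries were scaled by size alone (adjusted p = 0.0857) or only the 6 compared were fitted (0.0827). It ended too with Roquin IP 1 left out (0.207), or control IP 2 (0.153), control IP 3 (0.109) or Input 2 (0.0519). Over the input Scmh1 was higher by log2 2.07 (SE 0.40, adjusted p = 0.00529). Hmgxb3, an HMG-box protein gene, had 1399, 2900 and 5095 reads with Roquin antibodies, 219, 261 and 632 on beads alone and 159, 91 and 132 from lysate. The control IP and input libraries of Hmgxb3 overlapped, and Roquin IP stood 8.41-fold above control IP (log2 3.07, SE 0.32, adjusted p = 2.22e-05).

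Fos, the AP-1 transcription factor subunit induced within minutes of a stimulus, was scarce in the lysate, with 1, 6 and 4 reads in the input, where a count of 0 would allow up to 1.19 to 1.49 CPM per library. Roquin antibodies drew 58, 281 and 402 Fos reads and beads alone 1, 42 and 87, so that control IP 1 lay far under the other controls. In edgeR Fos was higher over control IP by log2 2.56 (SE 0.64, adjusted p = 0.0384). That call ended when libraries were scaled by size alone (log2 1.70, 0.0501) or only the 6 compared were fitted (0.0559). It ended too with Roquin IP 1 left out (0.0699), or Roquin IP 2 (0.129), Roquin IP 3 (0.145), control IP 2 (0.0697), control IP 3 (0.0551) or Input 2 (0.0641). With the replicate block it was 2.85 (adjusted p = 0.00209), and over the input it was 4.37 (SE 0.79, adjusted p = 0.00335).

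The other bound genes have unlike roles. Fbxo11, the substrate-binding subunit of an SCF ubiquitin ligase, had 2703, 5778 and 8198 reads with Roquin antibodies, 423, 436 and 872 on beads alone and 418, 356 and 301 from lysate. It was the bound gene with the highest input level, 153.4 ± 15.2 CPM, and rose 9.21-fold over control IP (log2 3.20, SE 0.31, adjusted p = 1.36e-05). Aggf1, named as an angiogenic factor gene, had 2446, 4358 and 8960 reads with Roquin antibodies, 242, 348 and 926 on beads alone and 102, 132 and 142 from lysate. The controls for Aggf1 agreed closely, at 73.8 ± 5.70 CPM against 814.6 ± 241.8 in Roquin IP (log2 3.46, SE 0.32, adjusted p = 8.81e-06). Slc25a25, a mitochondrial carrier of ATP-Mg and phosphate, had 656, 2414 and 3054 reads with Roquin antibodies, 83, 220 and 581 on beads alone and 89, 80 and 58 from lysate. Its 3 Roquin IP libraries were close, at 291.9 ± 15.3 CPM, and 7.35-fold above control IP (log2 2.88, SE 0.30, adjusted p = 2.22e-05).

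Prr3, a proline-rich protein gene, had 623, 1469 and 2391 reads with Roquin antibodies, 102, 47 and 137 on beads alone and 12, 17 and 18 from lysate. Of the 29 tested genes it had the highest enrichment over the input, log2 5.05 (SE 0.48, adjusted p = 1.1e-05), and 3.74 over control IP (SE 0.43, adjusted p = 5.4e-05). With 1 library left out at a time, Prr3 over control IP ran from 3.43 to 4.41, the latter without control IP 1. D11Wsu99e, now named Fam104a, had 249, 743 and 1139 reads with Roquin antibodies, 142, 129 and 321 on beads alone and 36, 41 and 29 from lysate. Its level stepped from 15.1 ± 0.986 CPM in the input to 32.0 ± 9.77 in control IP and 103 ± 8.26 in Roquin IP, with no overlap between groups. Control IP over the input was at log2 1.08 for D11Wsu99e (SE 0.30, adjusted p = 0.0772, or 0.0223 with the replicate block), and Roquin IP over control IP at 1.69 (SE 0.29, adjusted p = 0.00194).

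Exons of 5 bound genes overlap exons of a neighbour on the opposite strand, and the sources used here do not say whether counting used strand, so their counts are uncertain. Of these neighbours 4 were tested, and none was called in Roquin IP over control IP. Gnl1, which overlaps Prr3 by 386 bases, was at log2 -0.17 (adjusted p = 0.895), and Csf1r, which overlaps Hmgxb3 by 873 bases, had 0.68 (0.473). Naif1, which overlaps Slc25a25 by 379 bases, had 1.34 (0.536), and Cog1, which overlaps D11Wsu99e by 1116 of its 2619 exon bases, had -0.34 (0.818). Epc1 overlaps the antisense gene Gm28529 by 322 bases and the microRNA gene Mir1893, on its own strand, by 83 bases, and neither was analysed here. Among genes tested and not called, 5 had such an overlap on the opposite strand, with Pdia6, Shprh, Baz2b and Brwd1 among them. The part of these overlaps in the values was not tested.

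**Figure D2:**
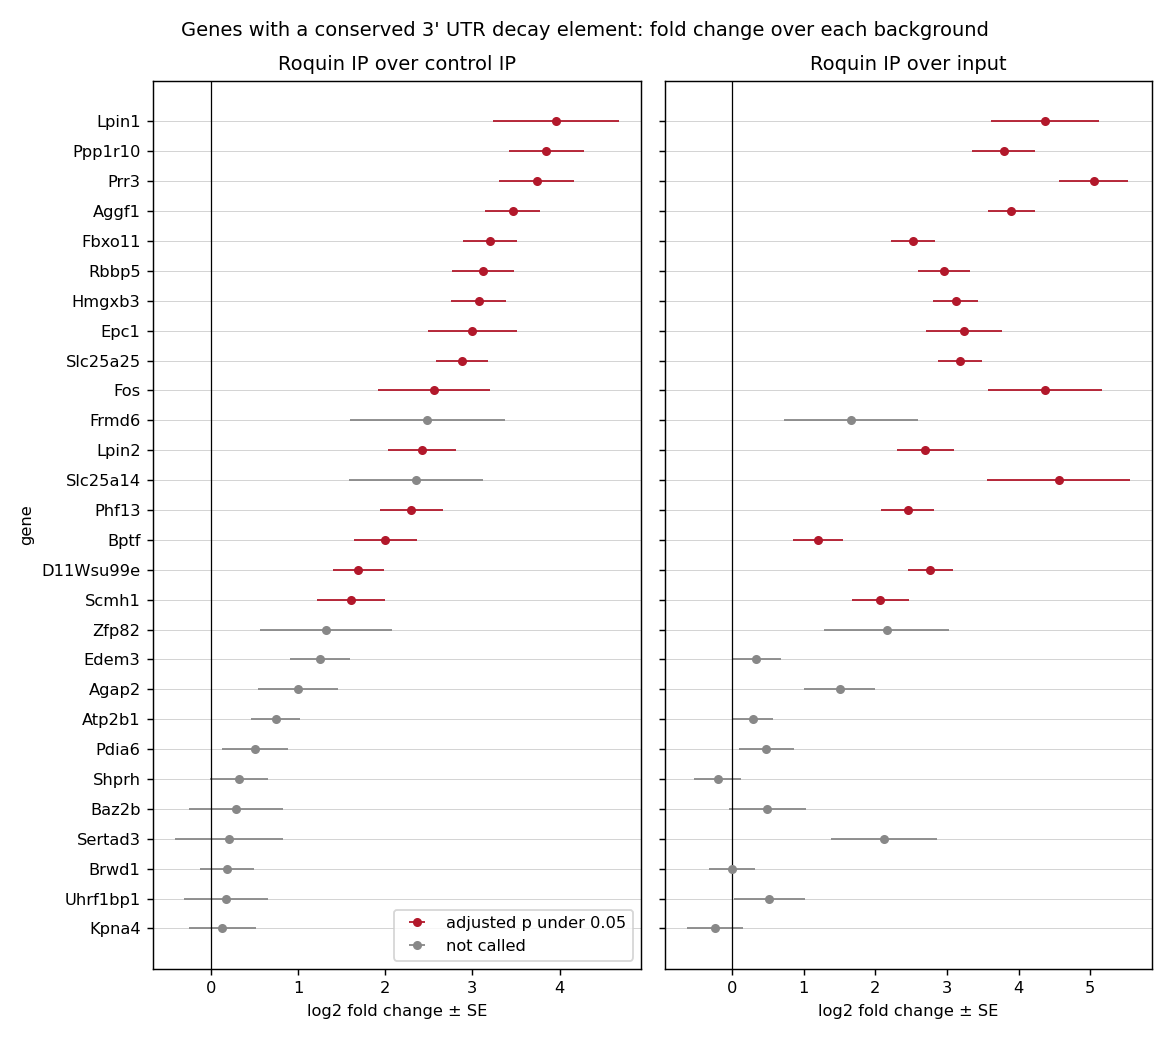
Log2 fold change with its SE for 28 of the 29 tested genes, over control IP on the left and over the input on the right, with genes of adjusted p under 0.05 in red. Lpin1 is highest over control IP (3.96) and Prr3 over the input (5.05), and the comparisons share the Roquin IP libraries.

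The genes that were tested and not called encode proteins of the endoplasmic reticulum (ER), nuclear import, chromatin and transport. Kpna4, a nuclear import receptor of the importin alpha family, had 94, 389 and 693 reads with Roquin antibodies, 114, 194 and 805 on beads alone and 105, 110 and 201 from lysate. In CPM the 3 groups overlapped, with means of 51.9, 47.3 and 62.0, and Kpna4 was at log2 0.13 over control IP (SE 0.39, adjusted p = 0.935).

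Chromatin genes stood among these too. Baz2b, a bromodomain protein gene, had 283, 492 and 678 reads with Roquin antibodies, 478, 155 and 325 on beads alone and 203, 116 and 93 from lysate. Control IP 1 held 145.6 CPM of it against 30.4 and 27.9 in the other controls, and without that library Baz2b was called higher (log2 1.48, adjusted p = 0.0437) in place of 0.28 (SE 0.54, adjusted p = 0.907). Brwd1, a gene of bromodomain and WD repeat proteins, had 135, 347 and 591 reads with Roquin antibodies, 211, 187 and 447 on beads alone and 162, 97 and 108 from lysate, with all groups overlapping (log2 0.18 over control IP, SE 0.31, adjusted p = 0.894). Shprh, a helicase and ubiquitin ligase gene of DNA damage tolerance, had 53, 141 and 233 reads with Roquin antibodies, 77, 66 and 163 on beads alone and 67, 57 and 44 from lysate. Its log2 fold change was 0.32 (SE 0.33, adjusted p = 0.806) over control IP and -0.20 (SE 0.33, adjusted p = 0.775) over the input. Aggf1, which shares 15 bases of the element with Shprh, the letters searched included, was at 3.46 and 3.90. The difference between the fold changes of separate genes was not tested.

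Of the genes of the secretory pathway, Pdia6, an ER disulfide isomerase, had 153, 1003 and 1231 reads with Roquin antibodies, 156, 286 and 1345 on beads alone and 118, 229 and 170 from lysate. The libraries of Pdia6 overlapped in CPM, and control IP 3 (115.6) stood near Roquin IP 2 and 3 (126.8 and 119.1). Its log2 value over control IP was 0.50 (SE 0.38, adjusted p = 0.735). Edem3, a mannosidase of ER-associated degradation, had 64, 313 and 383 reads with Roquin antibodies, 45, 68 and 193 on beads alone and 91, 43 and 57 from lysate. Edem3 lay just outside the call over control IP, with all Roquin IP libraries above the controls (log2 1.25, SE 0.34, adjusted p = 0.0646). It was called under the replicate block (0.0271), DESeq2 (0.00932), no filter (0.0495), only the 6 libraries compared (0.0296), or without Input 1 (0.0413) or Input 2 (0.0412). Over the input it was at 0.34 (SE 0.34, adjusted p = 0.604), and the libraries overlapped.

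Among transport genes, Atp2b1, the plasma membrane calcium pump, had 326, 1301 and 1686 reads with Roquin antibodies, 323, 348 and 1298 on beads alone and 313, 250 and 310 from lysate. All its Roquin IP libraries were above the controls in CPM, by log2 0.74 (SE 0.28, adjusted p = 0.296). Slc25a14, a mitochondrial carrier also known as an uncoupling protein, had 41, 131 and 190 reads with Roquin antibodies, 0, 16 and 73 on beads alone and 0, 3 and 2 from lysate. Its Roquin IP libraries were within 16.6 to 18.4 CPM while the controls ran from 0 to 6.27. It was not called over control IP (log2 2.35, SE 0.77, adjusted p = 0.165) except with the replicate block (2.71, 0.0358), DESeq2 (0.0291) or no filter (0.00406), and stood at 3.33 without control IP 3 (0.0634). It was called over the input (4.56, SE 1.00, adjusted p = 0.0123), a call that ended without Input 2 (5.19, 0.0525).

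Signalling and regulatory genes made up most of the rest. Agap2, a GTPase-activating protein gene for Arf, had 35, 111 and 197 reads with Roquin antibodies, 27, 36 and 101 on beads alone and 6, 25 and 9 from lysate. Its Roquin IP libraries were above all others, with log2 fold changes of 1.00 (SE 0.46, adjusted p = 0.484) over control IP and 1.5 (SE 0.49, adjusted p = 0.0762) over the input. The latter passed with the replicate block (1.54, 0.0383), DESeq2 (1.49, 0.0277) or without Input 2 (2.22, 0.0335). Frmd6, a FERM domain gene linked to Hippo signalling, had 15, 19 and 98 reads with Roquin antibodies, 0, 4 and 23 on beads alone and 6, 1 and 6 from lysate. At these counts a log2 fold change of 2.48 had an SE of 0.89 and did not pass (adjusted p = 0.247). With 1 library left out it ran from 1.97 to 3.69, the latter without control IP 3 (adjusted p = 0.149).

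Sertad3, a SERTA domain transcription regulator gene, had 14, 44 and 41 reads with Roquin antibodies, 27, 16 and 27 on beads alone and 2, 3 and 3 from lysate. Both kinds of IP were above every input library, while Roquin IP and control IP overlapped. The log2 fold change over the input was 2.12 in Roquin IP (SE 0.74, adjusted p = 0.0997) and 1.91 in control IP (SE 0.75, adjusted p = 0.171). The first passed without control IP 1 (2.12, 0.047). Uhrf1bp1 had 107, 279 and 200 reads with Roquin antibodies, 168, 130 and 142 on beads alone and 79, 56 and 28 from lysate, and all groups overlapped (log2 0.17 over control IP, SE 0.48, adjusted p = 0.934). Zfp82, a zinc finger protein gene, had 10, 60 and 40 reads with Roquin antibodies, 12, 7 and 18 on beads alone and 0, 4 and 4 from lysate. The Roquin IP libraries of Zfp82 lay above the rest in CPM, by log2 1.32 over control IP (SE 0.76, adjusted p = 0.644), and 2061 of its exon bases overlap another annotated gene on the same strand.

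The 18 genes under the filter had 0 to 63 reads over all 9 libraries, so enrichment could be measured for few of them. Pdzk1ip1, the gene of a PDZK1-interacting membrane protein, had 3, 16 and 13 reads with Roquin antibodies, 0, 1 and 0 on beads alone and none from lysate. The ratio to control IP was 31.1 with a 95% exact counting interval from 5.19 to 1264, and, with the input's 0 reads set to a floor of 3 for the group, Pdzk1ip1 was at least 3.62-fold higher than in the input. Fam188b, now named Mindy4, a deubiquitinase gene, had 16, 19 and 5 reads with Roquin antibodies, 1, 8 and 9 on beads alone and 0, 5 and 0 from lysate. Plag1, a zinc finger transcription factor gene, had 3, 9 and 10 reads with Roquin antibodies, 0, 2 and 3 on beads alone and 0, 2 and 0 from lysate. Their ratios to control IP were 2.16 (1.21 to 4.00) for Fam188b and 4.27 (1.58 to 14.4) for Plag1. These intervals cover counting error only. With no filter edgeR gave adjusted p of 0.192, 0.766 and 0.766 for the 3 genes over control IP.

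Others of the 18 were close to absent from this line. Crispld2 had 6 reads with Roquin antibodies, 3 on beads alone and 2 from lysate. Adamts6 had 6, 1 and 0 reads, and Efna4, an ephrin gene, had 4, 0 and 0. Prkd1 and Chic1 had 2, 1 and 0 reads each. The neural genes Bcan and Dscaml1 had reads in the input alone, 2 and 3 in all, and Wnt3a, Kctd8 and Gramd3 had 1 read each, in control IP. Prkg1 had 1 read, in Roquin IP. Ctla4, an inhibitory receptor gene of T cells, 4931408A02Rik, Slc35f4 and Mdga2 had 0 reads in all 9 libraries, which allows up to 0.258 to 1.49 CPM per library. Not detected at this depth, such genes give no measure of binding.

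Control IP was set beside the input to see what beads alone hold. Of the 29 genes edgeR called 0 higher and 0 lower in control IP over the input, against 0.815% and 0.303% of all genes tested, and DESeq2 called 1 higher (D11Wsu99e) and 0 lower, against 4.16% and 4.08%. At an unadjusted p under 0.05 there were 7 of 29, near the share of all genes tested (10.8% higher and 9.53% lower): Prr3 (log2 1.32), Fos (1.81), D11Wsu99e (1.08) and Sertad3 (1.91) above 0, and Fbxo11 (-0.67), Bptf (-0.80) and Edem3 (-0.91) below. Without control IP 1, Prr3 was at 0.64 and Sertad3 at 1.22, while Fos was called higher (2.30, adjusted p = 0.0432), against 1.89% of all genes. With no filter Prr3 was called higher (1.34, adjusted p = 0.0211), against 2.37% of all genes. With the replicate block D11Wsu99e was called higher (1.05, adjusted p = 0.0223), and Fbxo11 (-0.71, 0.0314) and Bptf (-0.78, 0.033) lower, against 6.65% of all genes higher and 5.78% lower. For Fbxo11 and Bptf the fold over the input was below the fold over control IP, at log2 2.53 against 3.20 and 1.20 against 2.00. Prr3 and Fos showed the other order, at 5.05 against 3.74 and 4.37 against 2.56. All comparisons come from the same fit, so these orders follow from the values of control IP over the input and add nothing to them.

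The other classes of the authors' prediction are given beside the list as counts, with no test between classes. The median log2 fold change over control IP was 2.00 for the 29 genes and -0.12 for all 9567 genes tested. Of 53 genes with a nonconserved 3' UTR element, 38 were tested, 4 were called higher and the median was 0.17. Of 80 genes with an element in the coding sequence, 55 were tested, 4 were called higher and the median was 0.22. The 8 genes left out were all called higher, with log2 fold changes from 4.35 for Icos to 8.87 for Nfkbid, above the maximum of 3.96 among the 29 tested genes of the list. The maximum leaves out the 18 genes with too few reads, of which Pdzk1ip1 stood at log2 4.27 over control IP with no filter (adjusted p = 0.192). The rule that left them out was written with their values known, so nothing is read from the gap between both sets. Of the 9437 tested genes with no predicted element, 329 (3.49%) were called higher.

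**Figure D3:**
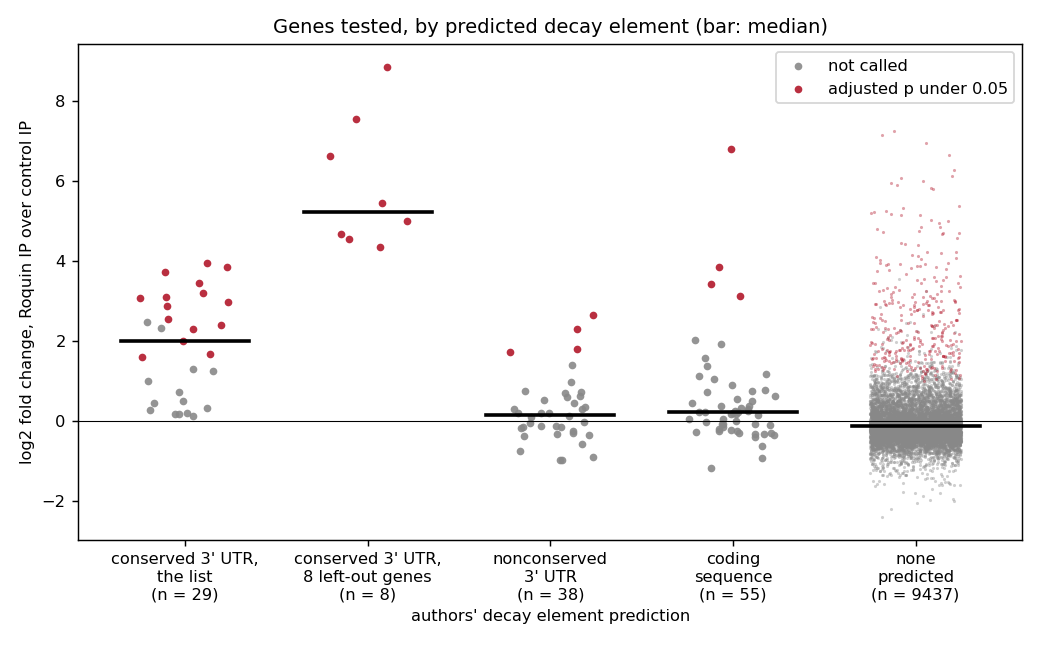
Log2 fold change of Roquin IP over control IP for each gene tested, by the authors' prediction class, with 1 dot a gene, red for adjusted p under 0.05 and a bar at the median. The list sits around a median of 2.00, below the 8 left-out genes and above the nonconserved (0.17) and coding (0.22) classes.

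Features of the element overlapped between bound and unbound genes. The features were read for 13 of the 15 bound and all 14 unbound genes. The loop was TGT in 8 of 13 bound and 8 of 14 unbound genes, TAT in 3 and 4, CAT in 2 (Fos and Scmh1) and 0, and CGT in 0 and 2 (Agap2 and Sertad3). The calls of Fos and Scmh1 ended under several alternatives. Fos and Sertad3 passed the count filter only with the help of their Roquin IP level, so no difference in loop is read from these genes. The stem ran on beyond TTC and GAA by 2 to 6 further pairs (G-T pairs counted) in bound genes and 2 to 5 in unbound genes, with a median of 3 in both. The shortest extension, 2 pairs, was found in 3 of 13 bound genes (Slc25a25, Phf13 and D11Wsu99e) and in 6 of 14 unbound genes (Edem3, Atp2b1, Pdia6, Shprh and Baz2b among them). Ppp1r10 had the longest, 6 pairs, and the unbound genes Frmd6 and Kpna4 had 5. Unbound means only not called. Frmd6 (log2 2.48 over control IP), Slc25a14 (2.35) and Zfp82 (1.32) passed the count filter only with the help of their Roquin IP level. Slc25a14 was also called over the input. The overlap in stem length rests partly on these genes. The element began a median of 623 bases after the stop codon in bound genes, from 24 in D11Wsu99e to 2021 in Lpin2. In unbound genes the median was 717, from 27 in Zfp82 to 3990 in Uhrf1bp1. The element of Zfp82 was found in a 3' UTR of 116 bases and not in its longest one, and Brwd1 came next at 77. Mean input levels also overlapped, from 1.59 to 153.4 CPM in bound and from 0.726 to 126.7 CPM in unbound genes. These are descriptions of few genes, with no test.

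**Figure D4:**
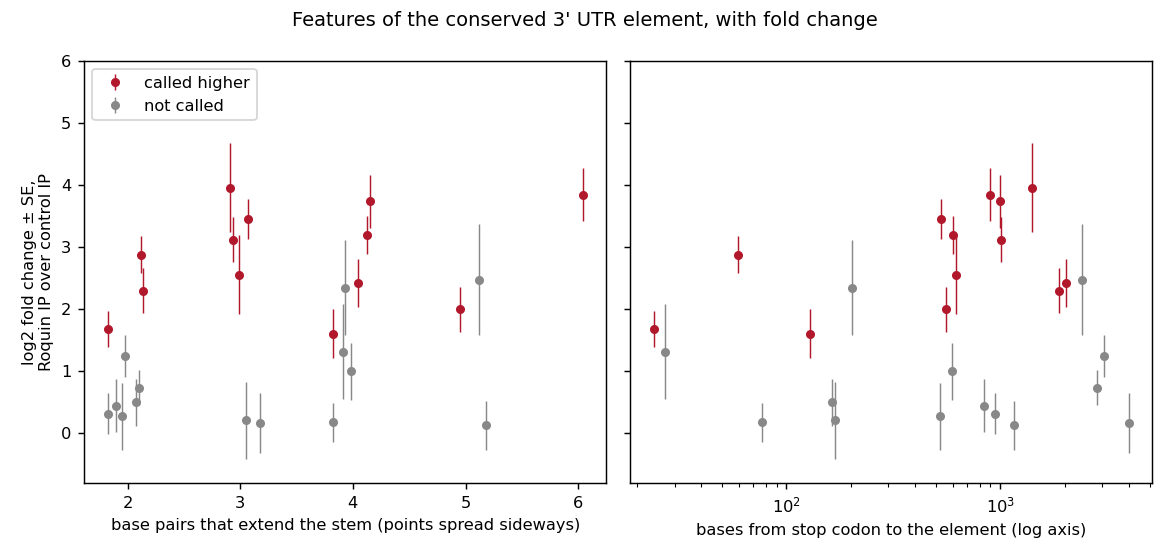
Log2 fold change over control IP with its SE against the number of base pairs that extend the stem (left) and the distance in bases from the stop codon to the element on a log axis (right), for 13 bound genes in red and 14 unbound genes in grey. Both colours occur at 2, 3, 4 and 5 added pairs and along most of the distance axis. Grey genes were not called, and some of them had few reads.

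Genes of the decay machinery that acts on the element were looked at as a listed pathway. Of 31 listed genes 30 were tested, and edgeR called 6 higher in Roquin IP over control IP and 0 lower, against 3.76% and 0% of all genes tested, with a median log2 fold change of 0.22 against -0.12 for all genes. Rc3h1 and Rc3h2, which encode Roquin itself, are 2 of the 6 and belong to the 8 genes left out by the rule. The other 4 were Cnot7, a catalytic deadenylase subunit of CCR4-NOT (log2 1.93, SE 0.26, adjusted p = 0.000267), Cnot2, a scaffold subunit of that complex (1.95, SE 0.29, 0.000652), Patl1, a decapping activator (2.42, SE 0.39, 0.00117), and Dcp2, the decapping enzyme (1.31, SE 0.31, 0.0258). Other genes of the same machinery were not called and lay below 0 over control IP. Among them were Cnot1 (log2 -0.75), Cnot8 (-0.43), Xrn1 (-0.75), Edc4 (-0.72) and Dcp1b (-0.83). Over the input 9 of the 30 were called higher, Rc3h1 and Rc3h2 among them, and 0 lower, against 5.45% and 2.79% of all genes tested.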

How the data were processed

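RNA-seq reads of 9 libraries (3 Roquin IP, 3 control IP, 3 input) were counted per gene by the authors, and the deposited values are raw counts per the file headers. Library totals ran from 1799390 to 12975767 reads. The authors' deposited ratio of Roquin IP to control IP has a log2 header but is on a linear scale by its values, and nothing says whether its deposited p-value is adjusted. The sources used here do not name the genome build, the annotation or the use of strand. The submitters' processing notes name CASAVA 1.8.2, BWA and DESeq 1.8.3. The table also holds 7480 empty entries with no symbol, which were not used.

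Counts were fitted with edgeR 4.0.16 in R 4.3.3 (quasi-likelihood F test, TMM factors, filterByExpr with a minimum count of 10, all 9 libraries, group as the only term). The filter left 9567 genes, and p-values were adjusted over all of them by Benjamini-Hochberg. The SE of a log2 fold change was taken as its size over the square root of F. The procedure was tested on simulated data with the same spread for every gene and no effect shared by replicate number. Changes in genes of low count were not simulated, so that test does not cover such features of these data. Levels are CPM with TMM factors, and 1 CPM stood for 2.02 to 11.6 counts. Intervals of ratios are exact at the 95% level and, like floors of 3 counts, cover counting error only, since reads without molecular identifiers are not independent molecules. Same-numbered libraries deviated together from their group means (r across genes 0.152 to 0.58 for the 9 pairs), so fits with the replicate number as a block are given where they change a call. Alternatives were RLE factors, library size alone, no filter, a minimum count of 30, DESeq2 1.42.0, only the 6 libraries compared, and each library left out. Genes were matched to GENCODE M21 by symbol (18728) or RefSeq synonym (1536), and 203 were unmatched. Every gene of the list is named except 1 that was tested and not called, which is not reported here and stays in the counts. Those called in Roquin IP over control IP are named bound, and genes with 100 or more reads are described one by one. The genes and lists were chosen with earlier results of these data known.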

Additional observations from a re-analysis of the deposited data

Results flagged for a closer look

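Genes under the count filter, which the tests above did not use, held signal above control IP in 3 cases by counting error alone. The ratio of Roquin IP to control IP was 31.1 for Pdzk1ip1 (32 reads against 1), 4.27 for Plag1 (22 against 5) and 2.16 for Fam188b (40 against 18). The spread between replicates is not in these ratios. Fam188b had 5 reads in Roquin IP 3 against 8 and 9 in control IP 2 and 3. With no filter edgeR did not call Pdzk1ip1, Plag1 or Fam188b over control IP.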

How the results depend on the processing

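The count of genes called higher over control IP (15 of 29) was 13 to 17 over all alternatives, and over the input (16 of 29) it was 14 to 17, with 0 called lower in either. The number tested also changed. Over control IP 17 of 43 were called with no filter, 15 of 26 with a minimum count of 30 and 14 of 24 with the filter on control IP and input only. Of all genes, 3.25%, 4.35% and 3.73% were called higher there. Over the input these were 16 of 43, 16 of 26 and 14 of 24, against 4.83%, 6.57% and 5.56%. With each library left out the counts ran from 13 to 16 and from 15 to 17. For control IP over the input, 0 genes were called higher, against 1 with no filter, 1 with DESeq2, 1 with the replicate block and 0 to 1 with a library left out, and 0 lower against 2 with the replicate block. The block changed no call of a single gene other than those given beside Slc25a14, Edem3, Agap2, D11Wsu99e, Fbxo11 and Bptf.

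Under scaling by library size alone, the median of all genes went from log2 -0.12 to -0.96 over control IP and from -0.01 to -0.76 over the input, and the list's median from 2.00 to 1.21 and from 2.16 to 1.37, so that the list stayed 2.12 to 2.17 above all genes. It called 13 of the list higher over control IP. With it, uncalled genes changed sign over control IP: Atp2b1 -0.10, Pdia6 -0.38, Shprh -0.48, Baz2b -0.48, Sertad3 -0.60, Brwd1 -0.61, Uhrf1bp1 -0.65 and Kpna4 -0.71. Over the input they were Edem3 -0.40, Atp2b1 -0.45, Pdia6 -0.27, Baz2b -0.27 and Uhrf1bp1 -0.27. With a library left out, uncalled values over control IP ran from -0.10 to 1.48 for Baz2b, -0.14 to 0.90 for Sertad3, -0.21 to 0.81 for Uhrf1bp1 and -0.10 to 0.52 for Kpna4. Over the input they ran from -0.19 to 0.20 for Brwd1 and -0.47 to 0.28 for Kpna4. Brwd1 over the input was -0.00, and 0.01 with no filter, 0.01 with a minimum count of 30, 0.01 with only the 6 libraries compared, 0.03 with the replicate block and 0.00 with the filter on control IP and input only. The cause was not tested. The input libraries, with 2.02 to 2.53 counts per CPM, limit what can be said of scarce genes such as Fos.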

Other observations

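The authors' deposited table, in which 41 of the 47 genes have a p-value, gave p under 0.05 for 14, all with a ratio over 1, against 1.81% of its 13759 genes with a value. All 14 were among the 15 genes called here, and Scmh1 (deposited ratio 3.07, deposited p 0.69196) was the one that differed. In the same table the deposited ratio of Lpin1 was 14.83 and that of Kpna4 1.11.

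Control IP 1 held the highest control level of 16 of the 29 tested genes and control IP 2 that of 1, while over all genes tested control IP 1 was highest for 3566 and control IP 2 for 2614.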
